A study of Mus musculus with 8 samples.

Results

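A set of 9 genes of blood clotting and of plasminogen activation was followed in tumor-associated macrophages (TAMs): F3, F7 and F10, which start clotting and drive its common pathway; F13a1, which crosslinks fibrin; Plau, Plaur and Serpinb2, which make, hold and inhibit the urokinase type of plasminogen activator; and Thbd and Pros1, which restrain clotting. They were chosen by gene symbol, with earlier results of these data known. All 9 were listed among the 21051 genes of the deposited tables and all 9 were tested among 12412 genes. The RNA came from CD45+F4/80+ cells sorted from B16 melanomas 14 days after subcutaneous injection of the tumor cells, and was sequenced for 4 WT mice (TAM-WT) and 4 Colec11-/- mice (TAM-KO), 1 library per mouse. All mice were male, 8 to 10 weeks of age and of the C57BL/6 strain, and the WT mice were littermates of the Colec11-/- mice. Colec11, the gene of collectin-11, is deleted in the whole animal and not only in macrophages. B16 is a pigmented mouse melanoma line of C57BL/6 origin.

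The clotting cascade in tissue begins when tissue factor, the membrane protein made from F3, binds factor VII. The complex activates factor X, which turns prothrombin into thrombin, and thrombin makes fibrin, which factor XIII then crosslinks. Urokinase, held at the cell surface by its receptor, turns plasminogen into plasmin, the protease that dissolves fibrin. Monocytes and macrophages are known to make tissue factor, factors VII and X, the A subunit of factor XIII, and urokinase with its receptor.

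Reads on genes numbered 16225362 to 17280267 in 7 libraries. The table of the eighth, TAM-KO replicate 1, skips 5311 consecutive genes, F3, F7 and F10 among them. The authors' table of the comparison gives TAM-KO replicate 1 for F7, so that F7 levels have 4 TAM-KO libraries, while F3 and F10 have 3, and the test of all these genes used 3. Values of single libraries are given in the order of their replicate numbers, 1 to 4, and from 2 to 4 where TAM-KO replicate 1 has none. Colec11 itself had 1, 4, 0 and 1 counts in the TAM-WT libraries and 1 count in each TAM-KO library, too few to check the deletion. Of the 12412 genes tested, 1218 passed (adjusted p at most 0.05, edgeR's quasi-likelihood test with Benjamini-Hochberg adjustment), which is 9.81% of all genes tested, with 568 higher (4.58%) and 650 lower (5.24%) in TAM-KO. With limma on log2(FPKM + 1) the split was 916 higher and 408 lower, so that the share of higher calls moved from 46.6% to 69.2%.

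Of the 9 genes, 5 passed the test, and these 5 were lower in TAM-KO (F13a1, Plau, Plaur, Serpinb2 and F7), against 5.24% of all tested genes that were lower. F13a1, Plau, Serpinb2 and F7, 4 of these 5, fell at least 2-fold, against 1.12% of all tested genes. In the same 5 genes every TAM-KO library lay below every TAM-WT library in CPM scaled by TMM, as for 10.1% of all tested genes, and none of the 9 genes had every TAM-KO library above every TAM-WT library, as for 9.10% of all tested genes. The median log2 fold change was -0.94 over the 9 genes and 0.0016 over all tested genes. Because the 9 genes were chosen with earlier results known, these shares and medians are a description and no evidence of an excess in the set. These 5 calls depended on the libraries: a fit that dropped TAM-KO replicate 3 left 0 calls among the 9 genes by edgeR (5 at an unadjusted p under 0.05), and fits that dropped TAM-WT replicate 3 or TAM-KO replicate 2 left 2. All 5 genes kept their direction in every fit that was made. Since the RNA is from whole sorted populations, fewer cells of a type and less RNA per cell cannot be told apart.

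**Figure D1:**
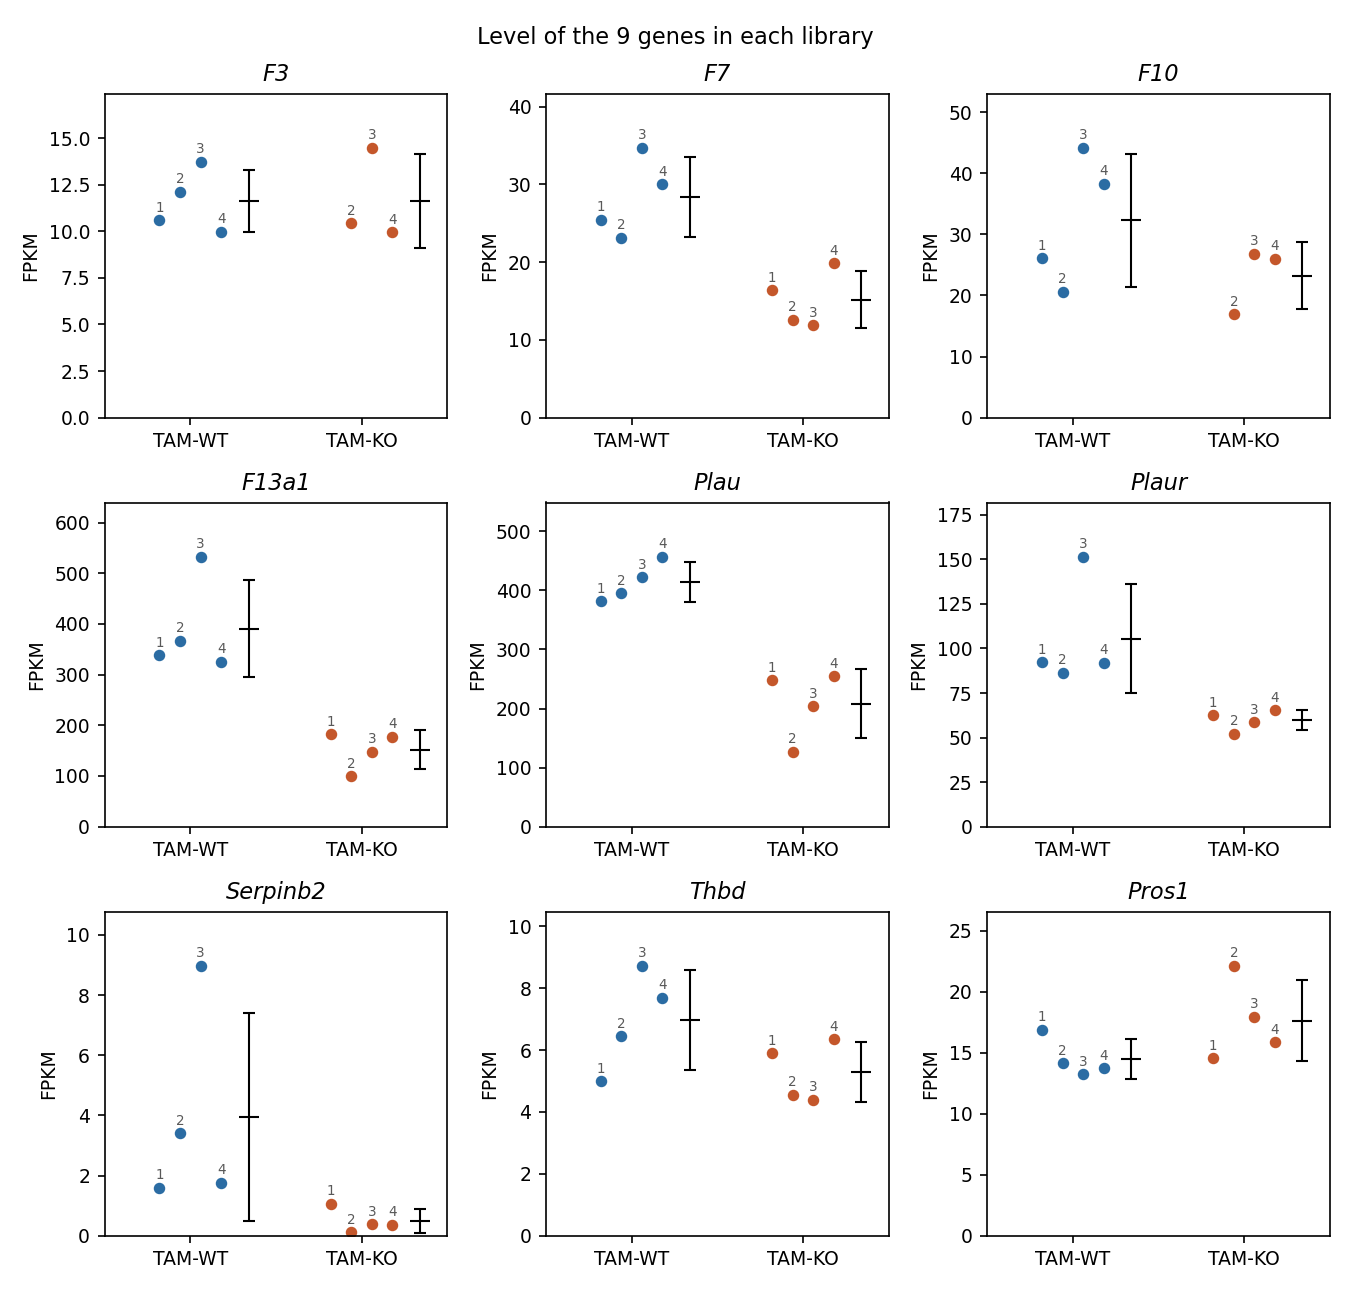
FPKM (vertical axes from 0, each with its own scale) of the 9 genes in each library, TAM-WT in blue and TAM-KO in orange, with the replicate number above each point and the mean ± SD beside each group. F13a1, Plau, Plaur, Serpinb2 and F7 have no overlap between the groups, and F3 and F10 have no value for TAM-KO replicate 1.

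The promoter stretches of 4 of the genes are shown for the motif letters in them, which Plaur, Serpinb2 and F3 share and which differ in F13a1. The sequences are from RefSeq promoters (GRCm38.p6), which run from 250 bases before to 50 bases after a start site and were given for F3, F7, F10, F13a1, Plaur, Serpinb2 and Pros1. Capitals mark the letters of the AP-1 motif TGANTCA in Plaur, Serpinb2 and F3, and of the NF-kB motif GGGNNTTNC, read on the opposite strand, in F13a1. Each stretch is 100 bases, written 5′ to 3′ on the strand of the gene. Those of Plaur and Serpinb2 lie before a start site within the annotated span of the gene, and that of F3 overlaps an exon of another annotated gene, Gm43823.
Plaur, chr7:24462363-24462462, plus strand: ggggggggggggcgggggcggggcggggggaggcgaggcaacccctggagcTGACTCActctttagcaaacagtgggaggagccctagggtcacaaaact
Serpinb2, chr1:107511283-107511382, plus strand: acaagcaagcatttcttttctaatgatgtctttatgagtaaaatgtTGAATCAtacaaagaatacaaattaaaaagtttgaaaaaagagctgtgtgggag
F3, chr3:121723357-121723456, plus strand: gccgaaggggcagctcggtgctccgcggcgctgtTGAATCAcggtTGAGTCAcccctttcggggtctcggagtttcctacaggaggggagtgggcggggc
F13a1, chr13:37050245-37050344, minus strand: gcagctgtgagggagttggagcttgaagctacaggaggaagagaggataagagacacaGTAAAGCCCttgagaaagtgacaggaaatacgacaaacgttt

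The AP-1 letters stood in 1 copy in the promoter of Plaur, in 1 copy in that of Serpinb2 and in 2 copies in that of F3, and 7.81% of the 32851 promoters of the table hold them. Of these 3 genes, Plaur and Serpinb2 passed the test and F3 did not. The second listed start of Serpinb2 also had the letters of NF-kB, which 15.2% of promoters hold, and the second listed start of F13a1 had 2 copies of the PU.1 letters AGGAAGT, which 9.35% of promoters hold. The letters of an interferon response element, GAAANNGAA, stand in 8.56% of promoters and were in none of the promoters of these genes. The promoters of F7, F10 and Pros1 held none of the 4 motifs on either strand. Such a match describes letters in a window and does not show that a factor binds there.

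Among the genes that start clotting, F7 fell and F3 and F10 did not pass the test. F7 (NCBI gene 14068, GRCm38.p6 chromosome 8, 13025506 to 13035809) encodes factor VII, the protease that tissue factor binds. F7 stood at 25.5, 23.1, 34.7 and 30.0 FPKM in the TAM-WT libraries and at 16.4, 12.6, 11.9 and 19.8 FPKM in the TAM-KO libraries, where the value of replicate 1 is from the authors' table of the comparison. The highest TAM-KO library, replicate 4, lay below the lowest TAM-WT library, replicate 2. The means were 28.3 ± 5.13 and 15.2 ± 3.69 FPKM (SD, n = 4 each), with a log2 fold change of -1.05 ± 0.24 (SE; edgeR, adjusted p = 0.0383, 4 TAM-WT against 3 TAM-KO libraries), a level 2.07 times as high in TAM-WT. The call was kept in 4 of 8 fits that each dropped 1 library, and was lost without TAM-WT replicate 3 or 4 or TAM-KO replicate 2 or 3 (highest adjusted p = 0.141). The fit without TAM-KO replicate 1, which kept the call, dropped no tested data of F7 and changed only the adjustment.

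F10 (NCBI gene 14058, chromosome 8, 13037308 to 13056676) encodes factor X and starts 1498 bases beyond the end of F7, with no annotated gene between them. The TAM-WT libraries had F10 at 26.1, 20.6, 44.2 and 38.3 FPKM, and those of TAM-KO at 16.9, 26.8 and 26.0 FPKM. The groups overlapped, since TAM-WT replicates 1 and 2 lay in the range of TAM-KO. The means were 32.3 ± 10.9 (SD, n = 4) and 23.3 ± 5.50 FPKM (SD, n = 3), and the log2 fold change came to -0.59 ± 0.31 (SE; edgeR, adjusted p = 0.234). Its approximate 95% interval, made from the fold change and its SE, ran from -1.20 to 0.014 on the log2 scale. That range holds the value of its neighbour F7.

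F3 (NCBI gene 14066, chromosome 3, 121723537 to 121735052) encodes tissue factor, the receptor that sets off clotting. F3 stood at 10.6, 12.1, 13.7 and 9.98 FPKM in the TAM-WT libraries and at 10.4, 14.5 and 9.95 FPKM in the TAM-KO libraries. The ranges lay over each other, with both the highest and the lowest library in TAM-KO. The means were 11.6 ± 1.68 (SD, n = 4) and 11.6 ± 2.50 FPKM (SD, n = 3). The log2 fold change of F3 came to -0.11 ± 0.17 (SE), with an approximate 95% interval from -0.44 to 0.23 (edgeR, adjusted p = 0.712). Its sign was not fixed, as it came to 0.020 without TAM-WT replicate 3.

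F13a1 had the lowest adjusted p of the 9 genes. It is the gene of the A subunit of factor XIII, the transglutaminase that crosslinks fibrin (NCBI gene 74145, chromosome 13, 36867178 to 37050244, minus strand). The TAM-WT libraries had F13a1 at 339, 367, 533 and 325 FPKM, and those of TAM-KO at 183, 99.4, 148 and 177 FPKM. Every TAM-KO library lay below every TAM-WT library, and TAM-WT replicate 3 was the highest. The means were 391 ± 96.3 and 152 ± 38.2 FPKM (SD, n = 4 each), and the log2 fold change came to -1.48 ± 0.24 (SE; edgeR, adjusted p = 0.0139), a level 2.79 times as high in TAM-WT. The call was kept in 7 of 8 fits that each dropped 1 library, and the adjusted p was 0.0586 without TAM-KO replicate 3. The span of F13a1 holds 2 long noncoding RNA genes, and whether the counting used strand is not given in the sources used here.

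Perivascular macrophages and platelets, which are known to hold factor XIII, were followed by their markers beside F13a1. Of 7 markers of LYVE1 perivascular-type macrophages, 6 were tested and 5 fell (Lyve1, Cd163, Cbr2, Gas6 and Mrc1), with a summed level of 1230 to 1400 FPKM in TAM-WT and 469 to 905 FPKM in the 3 complete TAM-KO libraries, and a median log2 fold change of -1.47. Of all tested genes, 5.24% were lower in TAM-KO. Mrc1 and Cbr2 were the most abundant of the LYVE1 perivascular-type markers. Of 9 platelet and megakaryocyte markers, 3 were tested and 0 passed in edgeR. Pf4, the most abundant, was at 1592 to 2224 FPKM in TAM-WT and 749 to 1489 FPKM in TAM-KO (log2 fold change -0.71, edgeR adjusted p = 0.0829), while the other 8, Treml1 the most abundant among them, were at most 1.25 FPKM in any library. Of 8 macrophage markers, led by C1qa and C1qc, 0 passed, and their sum of 7100 to 8880 FPKM in TAM-WT held the range of TAM-KO, 7960 to 8630 FPKM. The part of these cells in the level of F13a1 was not tested.

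**Figure D2:**
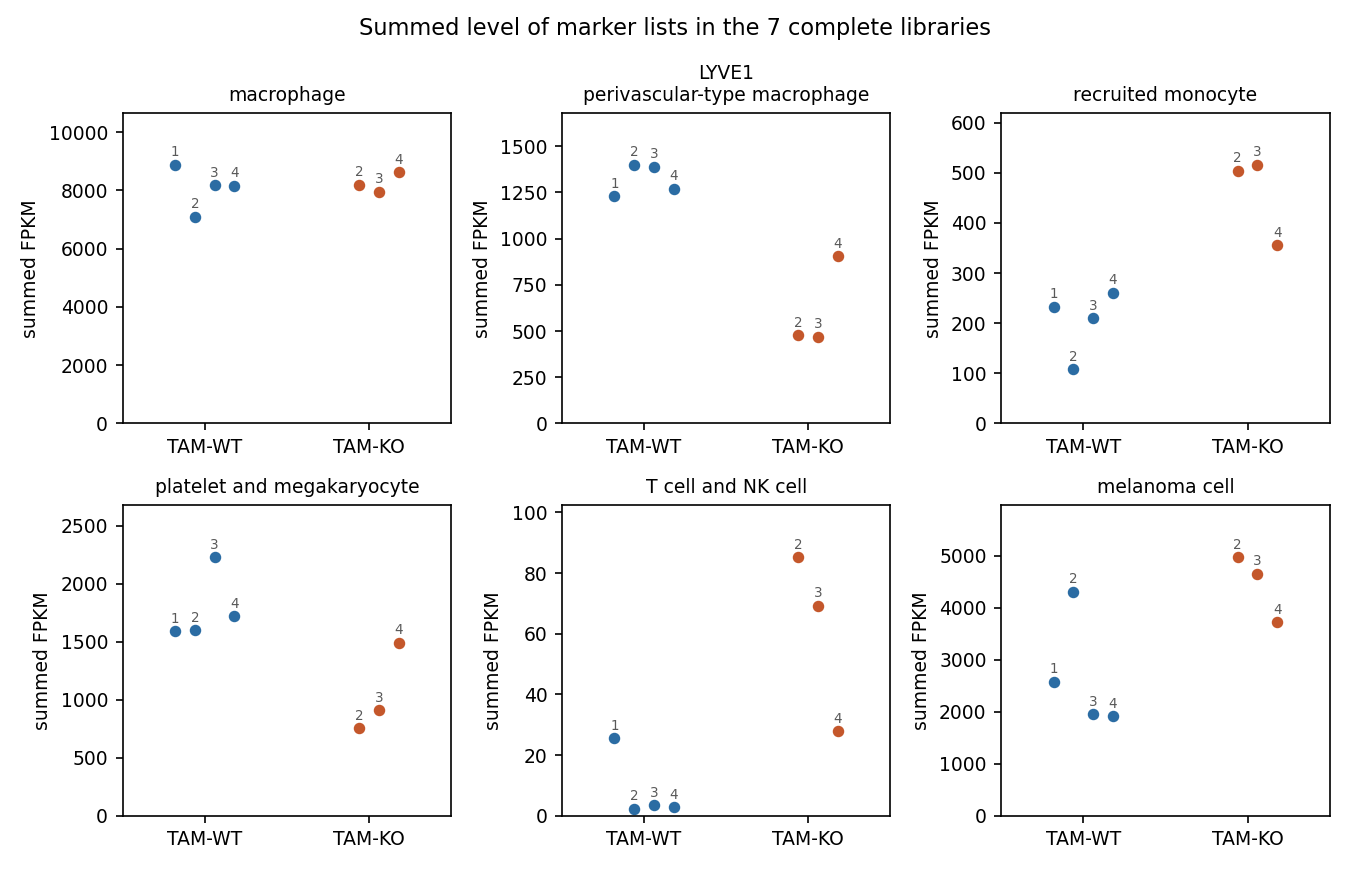
Summed FPKM of 6 marker lists (vertical axes from 0, each with its own scale) in the 4 TAM-WT libraries, in blue, and the 3 TAM-KO libraries with a value for every gene, in orange, with the replicate number above each point. The macrophage sums overlap between the groups, the LYVE1 perivascular-type sums are lower in all 3 TAM-KO libraries, and the recruited monocyte and T cell and NK cell sums are higher in them.

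Of the urokinase genes followed, the activator Plau, its receptor Plaur and the inhibitor Serpinb2 fell. This does not describe the inhibitors of urokinase as a whole. Plau (NCBI gene 18792, chromosome 14, 20836662 to 20843388) encodes urokinase, and was named among genes that favor tumor growth by the study, which chose that list on these samples, so it is not independent evidence of a direction. Plau stood at 382, 395, 423 and 457 FPKM in the TAM-WT libraries and at 248, 127, 204 and 255 FPKM in the TAM-KO libraries. The TAM-WT libraries lay close together, with a coefficient of variation of 8.03%, and the TAM-KO libraries were spread more widely, at 28.1%. The means were 414 ± 33.3 and 208 ± 58.6 FPKM (SD, n = 4 each). On the log2 scale the change was -1.10 ± 0.21 (SE; edgeR, adjusted p = 0.0203), a level 2.15 times as high in TAM-WT. The call was kept in 6 of 8 fits that each dropped 1 library, and was lost without TAM-WT replicate 3 or TAM-KO replicate 3 (highest adjusted p = 0.0776).

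Plaur (NCBI gene 18793, chromosome 7, 24460937 to 24475970) encodes the receptor that holds urokinase at the membrane. The TAM-WT libraries had Plaur at 92.3, 86.4, 152 and 92.0 FPKM, and those of TAM-KO at 62.7, 52.3, 58.6 and 65.2 FPKM. TAM-WT replicate 3 stood far above the other 3, which lay close together, and all 4 TAM-KO libraries lay below them. The means were 106 ± 30.8 and 59.7 ± 5.66 FPKM (SD, n = 4 each), and the log2 fold change came to -0.94 ± 0.20 (SE; edgeR, adjusted p = 0.0268). Without TAM-WT replicate 3 the log2 fold change was -0.67 and the call was kept. It was lost without TAM-KO replicate 1, 2 or 3, with a highest adjusted p of 0.0972.

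Serpinb2 (NCBI gene 18788, chromosome 1, 107500892 to 107525600) encodes plasminogen activator inhibitor type 2, a serpin of monocytes that blocks urokinase. It had the largest fall and the lowest level of the 9 genes. Serpinb2 stood at 1.60, 3.41, 8.98 and 1.76 FPKM in the TAM-WT libraries and at 1.06, 0.11, 0.38 and 0.37 FPKM in the TAM-KO libraries, from 47, 101, 262 and 52 counts and from 32, 3, 11 and 11 counts. The groups did not overlap, but TAM-KO replicate 1 lay close to TAM-WT replicates 1 and 4. The means were 3.94 ± 3.46 and 0.48 ± 0.41 FPKM (SD, n = 4 each), so that the SD was 87.9% and 84.7% of the mean. The fall in TAM-KO, as a log2 fold change, was -3.14 ± 0.72 (SE), with an approximate 95% interval from -4.56 to -1.72 (edgeR, adjusted p = 0.0321). It ranged from -3.88 to -2.27 in the fits that left out 1 library, 4 of which kept the call, which was lost without TAM-WT replicate 3 or TAM-KO replicate 2, 3 or 4 (highest adjusted p = 0.105). It was -1.55 with limma on log2(FPKM + 1), a scale that understates the change of a gene this low.

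**Figure D3:**
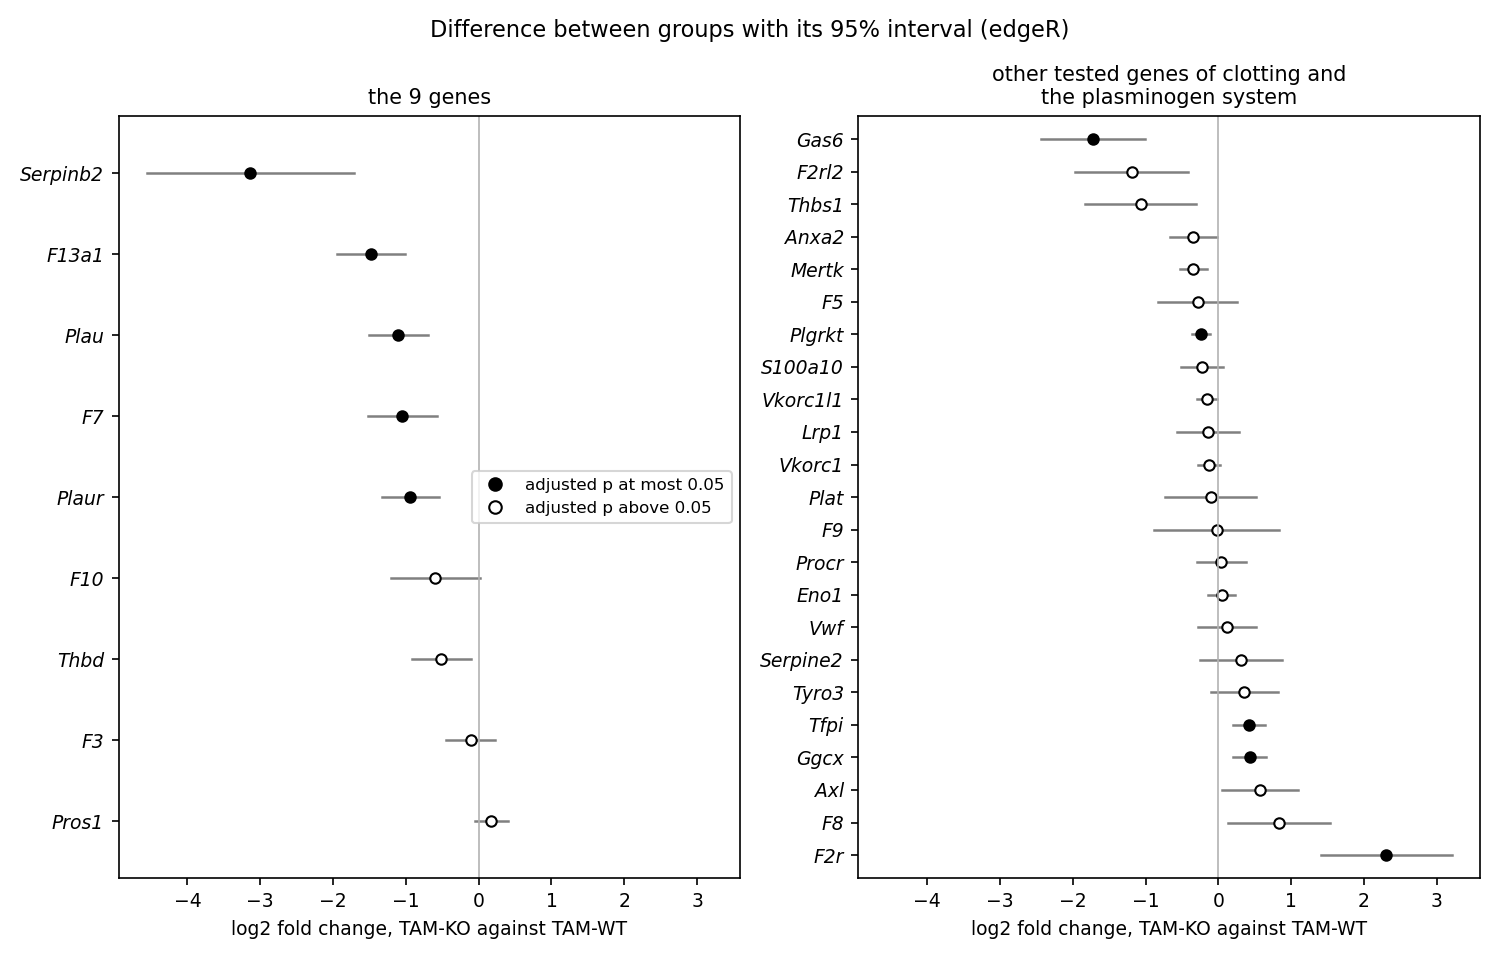
The log2 fold change (edgeR) of TAM-KO against TAM-WT (horizontal axis), for the 9 genes on the left and for the other 23 tested genes of clotting and the plasminogen system on the right, in the order of their values. Lines are approximate 95% intervals made from the fold change and its SE, and are not the test. Those of Axl and Anxa2 leave out 0 at unadjusted p-values of 0.0578 and 0.0691 (edgeR). Filled points have an adjusted p of at most 0.05. All 5 filled points of the 9 genes are below 0, from -3.14 for Serpinb2 to -0.94 for Plaur, and of the 5 filled points on the right 3 are above 0 and 2 below.

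Neither anticoagulant gene passed the test. Thbd (NCBI gene 21824, chromosome 2, 148404471 to 148408188, minus strand) encodes thrombomodulin, the receptor that turns thrombin toward activating protein C. The TAM-WT libraries had Thbd at 4.99, 6.45, 8.73 and 7.69 FPKM, and those of TAM-KO at 5.89, 4.56, 4.40 and 6.34 FPKM. TAM-WT replicate 1 lay among the TAM-KO libraries and the other 3 TAM-WT libraries above them. Its log2 fold change was -0.51 ± 0.21 (SE), with an approximate 95% interval from -0.92 to -0.10. After adjustment over all genes Thbd did not pass (edgeR, adjusted p = 0.130).

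Pros1 (NCBI gene 19128, chromosome 16, 62854307 to 62929346) encodes protein S, the cofactor of activated protein C and a ligand of the receptor kinases Tyro3 and Mertk. Pros1 stood at 16.9, 14.1, 13.3 and 13.8 FPKM in the TAM-WT libraries and at 14.6, 22.2, 18.0 and 15.9 FPKM in the TAM-KO libraries. The groups overlapped, with TAM-KO replicate 2 highest. Pros1 was the only one of the 9 genes with a log2 fold change above 0, at 0.17 with a standard error of 0.12. The approximate 95% interval ran from -0.053 to 0.40 (edgeR, adjusted p = 0.338).

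The levels of the 9 genes per length of transcript covered a wide range in TAM-WT. Plau and F13a1 were the highest and overlapped, and stood among the most abundant RNAs of these cells, above 98.6% and 98.5% of the 16786 genes with a value. Plaur came next, above 94.9% of genes, and overlapped neither neighbour. F10 and F7 overlapped, above 83.4% and 81.5% of genes, as did Pros1 and F3, above 68.7% and 64.1%. Thbd and Serpinb2 were the lowest and overlapped, above 54.3% and 45.9% of genes. In TAM-KO the means kept this order apart from Pros1, which at 17.6 ± 3.32 FPKM (SD, n = 4) lay above F7 with overlapping libraries.

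The same libraries were often at the end of the range. Among TAM-WT, replicate 3 was the highest for 7 of the 9 genes, all but Plau and Pros1, both in FPKM and in CPM scaled by TMM. Of all tested genes, 10.9% in FPKM and 23.9% in scaled CPM had their highest TAM-WT value there. Among TAM-KO replicates 2 to 4, replicate 4 was the highest for 5 and replicate 2 the lowest for 5 of the 9 genes in FPKM, against 24.8% and 19.8% of all tested genes. In scaled CPM these counts were 7 and 6, against 37.3% and 28.8% of all tested genes. Lists of recruited monocyte, T cell and NK cell, and melanoma cell markers also differed between libraries. The sum of 7 recruited monocyte markers, led by Plac8 and Ly6c2, was 108 to 261 FPKM in TAM-WT and 355 to 516 FPKM in TAM-KO replicates 2 to 4. Of the 7, 3 rose (Ly6c2, Plac8 and Ms4a4c), against 4.58% of all tested genes, and the median log2 fold change of the list was 0.91. Ccr2 and Vcan did not rise (log2 fold changes -0.045 and -0.38, edgeR adjusted p = 0.917 and 0.426). Chil3 and Hp had log2 fold changes above 0 and did not pass. The sum of 9 T cell and NK cell markers, led by Nkg7 and Gzmb, was 2.29 to 25.6 FPKM in TAM-WT, with TAM-WT replicate 1 the highest, and 27.8 to 85.3 FPKM in TAM-KO, and 1 of 7 tested rose, Nkg7. The sum of 6 melanoma cell markers, led by Pmel and Dct, was 1910 to 4310 FPKM in TAM-WT and 3730 to 4980 FPKM in TAM-KO, and 1 of 6 rose, Sox10. Of the other lists, 1 of 4 tested neutrophil markers rose (S100a8), 1 of 6 dendritic cell markers rose (Xcr1), and 0 of 4 endothelial cell, 0 of 4 fibroblast, 0 of 2 B cell and 0 of 1 mast cell markers passed by edgeR. The summed level of these 6 lists was highest for neutrophil markers, led by Mmp8 and Csf3r, at 47.1 to 73.8 FPKM in TAM-WT and 59.8 to 72.6 FPKM in TAM-KO replicates 2 to 4, and no other of them exceeded 17.6 FPKM in these 7 libraries. TAM-KO replicate 1, outside these sums, had S100a8 at 73.5 and S100a9 at 80.0 FPKM. TAM-KO replicates 2 to 4 had 9.13 to 15.8 and 5.09 to 13.3 FPKM. Mmp8, alone of the 4 tested neutrophil markers, had a log2 fold change below 0 (-1.225, edgeR adjusted p = 0.0603) and did not pass. The most abundant were Ccr7 and Cd209a of the dendritic cell markers, Egfl7 and Pecam1 of endothelial cells, Col1a1 and Col1a2 of fibroblasts, Cd79b and Cd79a of B cells, and Kit and Cpa3 of mast cells, of which 3 markers (Mcpt4, Tpsb2 and Fcer1a) had no value. No marker with a value was at 0 in all 7 libraries. The part of the cells of these lists in the levels of the 9 genes, and of the other genes of clotting and the plasminogen system, was not tested.

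**Figure D4:**
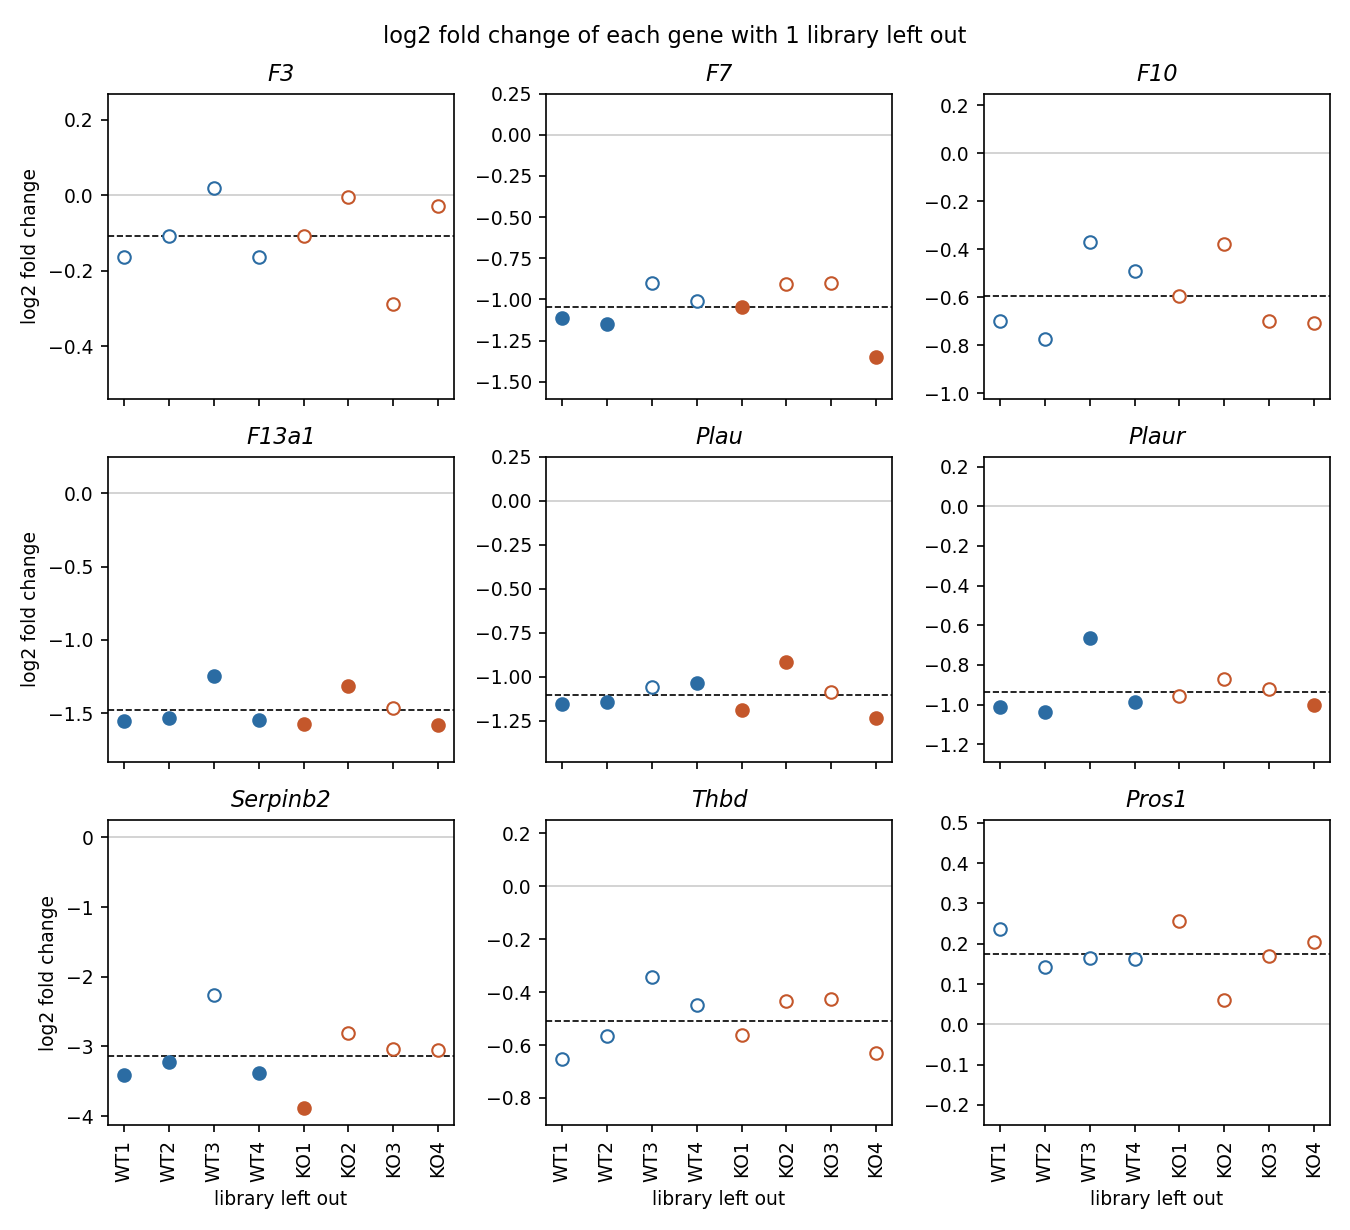
The log2 fold change of TAM-KO against TAM-WT of each of the 9 genes (vertical axes, each with its own scale) when the library named on the horizontal axis is left out, TAM-WT in blue and TAM-KO in orange, with the value of all libraries as a dashed line and 0 as a gray line. Filled points have an edgeR adjusted p of at most 0.05. No point is filled where TAM-KO replicate 3 is left out, and F13a1 is filled in the other 7 fits. For F3, F7 and F10, which TAM-KO replicate 1 lacks, leaving out that library changes only the adjustment and the fit of other genes.

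Ratios within a library compared the partners directly, as a description with no test. Plau stood at 4.14, 4.57, 2.79 and 4.97 times Plaur in the TAM-WT libraries and at 3.95, 2.43, 3.48 and 3.90 times in the TAM-KO libraries. The ratio of the activator to its receptor thus overlapped between the groups, while both genes fell. F3 to Tfpi, the inhibitor of tissue factor and factor VII, took the values 0.54, 0.50, 0.84 and 0.51 among TAM-WT and 0.35, 0.47 and 0.39 among the 3 TAM-KO libraries with F3, without overlap. Thbd to F3 was 0.60 ± 0.13 (SD, n = 4) and 0.46 ± 0.17 (SD, n = 3), with overlap.

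**Figure D5:**
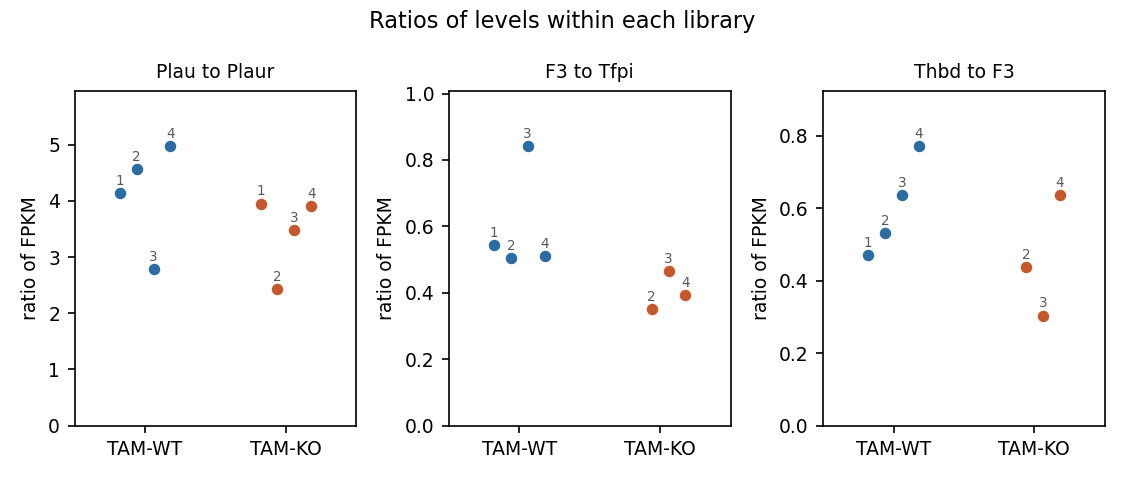
Ratio of FPKM values within each library (vertical axes from 0) for 3 pairs of partners, TAM-WT in blue and TAM-KO in orange, with the replicate number above each point. The ratio of F3 to Tfpi is below 0.5 in the 3 TAM-KO libraries with a value and above it in all 4 TAM-WT libraries, and the other 2 ratios overlap between the groups.

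Of 45 other genes of clotting, its inhibitors and the plasminogen system, 10 had no value, 12 were under the filter on low counts (at most 0.54 FPKM in any library), and 23 were tested. The median log2 fold change of the 23, which were also chosen with earlier results of these data known, was -0.11. Of them, 5 passed, 3 higher and 2 lower in TAM-KO, against 4.58% and 5.24% of all tested genes. These calls depended on single libraries, since edgeR called 8 when TAM-WT replicate 2 was dropped and 2 when TAM-KO replicate 1 was. It called 0 when TAM-WT replicate 3 or 4 or TAM-KO replicate 2 or 3 was dropped (6 to 8 at an unadjusted p under 0.05).

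None of the 13 other clotting factors and fibrinogen chains passed, and 4 of them were tested. Vwf, the von Willebrand factor that tethers platelets, was the most abundant at 1.11 ± 0.24 and 1.28 ± 0.33 FPKM (SD, n = 4 each), and F5, the cofactor of factor X, followed at 0.37 ± 0.088 (SD, n = 4) and 0.33 ± 0.084 FPKM (SD, n = 3). F12, F13b, Klkb1 and F2, the genes of factor XII, the B subunit of factor XIII, plasma prekallikrein and prothrombin, were under the filter, and these proteins are known to be made mainly by the liver. RNA of F7 and F10 was thus held at means of 15.2 to 32.3 FPKM in both groups, and F5 and F2 were under 0.5 FPKM in every library.

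Among the receptors of clotting proteases, F2r, the thrombin receptor PAR1, rose. The TAM-WT libraries had F2r at 0.19, 0.06, 0.17 and 0.09 FPKM, and those of TAM-KO at 0.47, 0.97, 0.75 and 0.36 FPKM, a low level without overlap. Its log2 fold change was 2.30 ± 0.46 (SE; edgeR, adjusted p = 0.0273, 3 TAM-KO libraries), from 3 to 10 counts in the TAM-WT libraries. The call was kept in 4 of 8 fits that each dropped 1 library (highest adjusted p = 0.105). Of these 8, the fit without TAM-KO replicate 1 dropped no tested data of F2r. F2rl2, the thrombin receptor PAR3, had the highest level of these receptors in TAM-WT and lay below F2r in TAM-KO, at 0.62 ± 0.18 and 0.29 ± 0.097 FPKM (SD, n = 4 each), and missed the threshold (log2 fold change -1.19, edgeR adjusted p = 0.0865).

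Tfpi, the inhibitor of the tissue factor complex, rose from 19.9 ± 3.18 to 28.4 ± 2.55 FPKM (SD, n = 4 each; log2 fold change 0.42 ± 0.11, SE; edgeR, adjusted p = 0.0462). Its groups did not overlap in FPKM and did in scaled CPM. Procr, the endothelial protein C receptor, was at 15.4 ± 3.31 and 16.9 ± 1.69 FPKM (SD, n = 4 each), a difference that did not pass. Ggcx, the carboxylase that makes the vitamin K dependent residues of factors VII and X and of protein S, rose from 8.97 ± 1.97 to 13.6 ± 1.56 FPKM (SD, n = 4 each; log2 fold change 0.43 ± 0.12, SE; edgeR, adjusted p = 0.0452). Vkorc1, which recycles vitamin K for that step, was at 43.8 ± 2.63 and 43.0 ± 3.44 FPKM (SD, n = 4 each, log2 fold change -0.13, edgeR adjusted p = 0.304). Tfpi and Ggcx each passed in 2 of 8 fits that each dropped 1 library.

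Gas6, the relative of protein S and a ligand of the same receptor family, fell from 215 ± 32.8 to 77.1 ± 37.5 FPKM (SD, n = 4 each). Its log2 fold change was -1.72 ± 0.36 (SE, edgeR, adjusted p = 0.0305, 3 TAM-KO libraries), and it passed in 4 of 8 fits that each dropped 1 library. Of these 8, the fit without TAM-KO replicate 1 dropped no tested data of Gas6. Gas6 is also 1 of the LYVE1 perivascular-type markers above. Its partner in structure, Pros1, did not pass. Axl, a receptor of Gas6, was at 39.3 ± 16.4 and 63.2 ± 17.5 FPKM (SD, n = 4 each, log2 fold change 0.57, edgeR adjusted p = 0.178).

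Of the other genes of the plasminogen system, Plgrkt, a membrane receptor of plasminogen, fell slightly, from 55.8 ± 4.24 to 47.0 ± 4.33 FPKM (SD, n = 4 each; log2 fold change -0.24 ± 0.066, SE; edgeR, adjusted p = 0.0499), and passed in 1 of 8 fits that each dropped 1 library. The groups overlapped in FPKM. Eno1 and Anxa2, which bind plasminogen at the cell surface beside other roles, were the most abundant. Eno1 was at 1959 ± 135 (SD, n = 4) and 2170 ± 179 FPKM (SD, n = 3), and Anxa2 at 845 ± 121 (SD, n = 4) and 715 ± 97.2 FPKM (SD, n = 3), and neither passed.

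The genes whose profile over the libraries was most like that of each gene that passed were found by the smallest root mean square difference of log2 CPM after each gene was centered on its own mean, a description with no test. Gpr183, Gdf15 and Lrp12 were nearest to F13a1 (0.21 each on the log2 scale, 8 libraries), and Lrp12, Osbpl8 and Rassf8 to Plau (0.13 to 0.20), so that Lrp12 was near to both. P2ry2, Nanos1 and Rilpl2 were nearest to Plaur (0.14 to 0.15), and Zranb3, Emp1 and Mtss1 to F7 (0.082 to 0.092, 7 libraries). The nearest to Serpinb2 were the chemokine genes Ppbp and Cxcl3 and the chemokine receptor gene Ccrl2 (0.57 to 0.79). This distance is not scaled to the size of a gene's own changes, and Serpinb2 had the largest fall. Distances are therefore not comparable between the genes that passed. All genes compared come from the same libraries. Candidates needed a value in every library used, 10809 genes for F7 and 8344 for F13a1, Plau, Plaur and Serpinb2. Genes that TAM-KO replicate 1 lacks could thus not be named for these 4.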

How the data were processed

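RNA of sorted TAMs was sequenced on BGISEQ-500 in 4 WT and 4 Colec11-/- mice, grouped by the labels. Expected counts (estimated reads per gene, not normalized) and FPKM were deposited by the authors, who aligned reads with Bowtie2 and quantified genes with RSEM. The submitters' processing notes name HISAT2 2.0.4, Bowtie2 2.2.5, RSEM 1.2.12 and GRCm38.p6, and the annotation and strand setting are not given in the sources used here. The deposited TPM values enter no result, nor do the log2 ratios, p-values and q-values of the authors' comparison table.

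Genes were matched by NCBI gene ID, and a line of TAM-KO replicate 2 broken over 2 lines was read by it. In TAM-KO replicate 1, 629 values that stood on rows of other genes were not used. The fit had 8 libraries for the 12572 genes present in each of them and 7 for genes that TAM-KO replicate 1 lacks, with 1 joint adjustment of p. Values taken for TAM-KO replicate 1 from the authors' table, which lists only selected genes, entered FPKM levels and not the test.

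Expected counts were rounded and tested with edgeR 4.0.16 in R 4.3.3 (TMM, filterByExpr, glmQLFit, glmQLFTest, Benjamini-Hochberg adjustment over all genes), without covariates. The scripts were tested on simulated data. Alternatives were DESeq2 size factors, DESeq2 1.42.0, limma 3.58.1 on log2 FPKM with a pseudocount of 1 or 0.1, a minimum of 10 counts in each library or no filter, a replicate block, TAM-KO replicate 1 filled from the authors' table, stricter thresholds, and each library left out. P-values test the difference between TAM-KO and TAM-WT against the spread between these libraries, and depth is given as reads on genes.

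The 9 genes, the 45 other genes of the system, the marker lists and the motifs were chosen with earlier results of these data known. Named are all 9 genes, other genes of the system that passed, the 2 most abundant of each role and marker list, and the 3 nearest profiles among genes with a mean CPM of at least 5 (log2 CPM with a prior count of 2). Markers that passed are also named, and some that did not. Of the genes and markers listed, 2 are not reported here and enter no list, sum or ratio.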

Additional observations from a re-analysis of the deposited data

Results flagged for a closer look

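Plaur in TAM-WT replicate 3 stood apart from the other TAM-WT libraries. Its level there was 151.61 FPKM, and its gap to the next library was 0.911 of the whole range of the 4 libraries, above the 95% critical value of Dixon's test. It was the only such value among 39 groups of 4 libraries looked at for the genes named in the text, where chance gives 1.95, so that a single value of this kind is within what chance gives. Without this library the log2 fold change of Plaur was -0.67 and still passed (edgeR). TAM-WT replicate 3 was also the highest TAM-WT library for F3, F7, F10, F13a1, Serpinb2 and Thbd, and its part in these levels beyond the fits without it was not tested.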

How the results depend on the processing

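Of 152 values of the log2 fold changes of the 9 genes under the alternatives, 131 kept their direction and their side of the threshold, 19 kept the direction and lost the call, 1 gained it and 1 changed sign, F3 at 0.020 without TAM-WT replicate 3 (-0.29 to 0.020 over the fits that left out 1 library). The count of the 9 genes that passed was 5 with all libraries, 0 to 5 over the fits that left out 1 library, 4 with at least 10 counts in every library, where Serpinb2 was not tested, and 0 at an adjusted p of at most 0.01 by edgeR (6 at an unadjusted p under 0.05; DESeq2 called 5 at an adjusted p of at most 0.05). The count of the other genes of the system moved from 5 to 3 with at least 10 counts in every library, 3 with the replicate block, 2 with TAM-KO replicate 1 filled from the authors' table, 2 with a fold change of at least 2, 0 at an adjusted p of at most 0.01 by edgeR (10 at an unadjusted p under 0.05), and 0 to 8 over the fits that left out 1 library. The count over all genes moved from 1218 to 2253 with DESeq2, 314 with a fold change of at least 2, 36 at an adjusted p of at most 0.01, and 77 to 2755 over the fits that left out 1 library. The lowest counts were without TAM-KO replicate 2 or 3 (77 each) and the highest without TAM-WT replicate 2. The cause of these changes was not tested.

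Deviations from the group mean had correlations of -0.33, 0.02, -0.23 and 0.26 between same-numbered libraries. Libraries of different numbers had correlations from -0.30 to 0.38. Since values this far from 0 also arose between different numbers, the check cannot tell whether the numbers pair the samples. The labels do not say. With the replicate block 6 of the 9 genes passed, F10 being added at an adjusted p of 0.0378, and 1080 of all genes. Serpinb2, with 3 to 262 counts, had the largest SE of the log2 fold change among the 9 genes (0.72). F10, with 3 TAM-KO libraries, had the next (0.31). F3 and F7, also tested with 3, had 0.17 and 0.24, against 0.12 to 0.24 for the other genes.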
